A study of Mus musculus with 6 samples.

Results

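The cadherins and protocadherins are transmembrane adhesion proteins, taken here as every gene record whose symbol begins with Cdh and a digit or with Pcdh, the endothelial cadherin Cdh5 left out. The rule found 56 of 21540 records, which stand for 55 symbols: 22 Cdh records, 13 records of protocadherins outside the gene cluster and 21 records of clustered protocadherins. All 21 clustered records are Pcdhb genes, and 0 records begin with Pcdha or Pcdhg, which are therefore not analysed here. RNA was sequenced from the nucleus accumbens, a ventral striatal region of the reward circuit, of C57BL/6 mice, with 3 cocaine and 3 saline libraries. The cocaine mice received 7 daily intraperitoneal injections of 20 mg/kg and the saline mice 7 daily saline injections, and both groups were labelled as 4 h into withdrawal. The labels give no genotype, age or sex, and they do not say whether a library held the tissue of a single mouse or of several, so the spread behind the deposited p-values may be technical. The authors' deposited table holds 1 value per group and record, in FPKM (fragments scaled to the length of the transcript and the size of the library), and no value per library, so no SD and no range between replicates can stand beside any value, and the depth of the libraries is unknown.

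Cadherins bind through calcium-dependent repeats outside the cell, mostly to the same cadherin on the facing cell, and the classical cadherins hold the actin skeleton through beta-catenin, alpha-catenin and p120-catenin. In the brain they take part in sorting neurons into regions and circuits and in building and remodelling synapses. Protocadherins lack the catenin-binding tail. The non-clustered ones are expressed in region-specific patterns, while the clustered ones are transcribed from tandem arrays of alternative genes, so that single neurons carry different combinations of isoforms at their surface.

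The defining markers of the labelled tissue were abundant. The 6 spiny neuron markers, among them Drd1a, Drd2 and Penk, summed to 2781 FPKM in the cocaine group and 2856 FPKM in the saline group in the authors' deposited table, and none of them passed q < 0.05. All 5 endothelial markers lay below 0 on the log2 scale (summed level 18.1 FPKM after cocaine, against 24.5 FPKM after saline), with Cldn5 past the threshold. Of 3 tested choroid plexus markers, which summed to 12.9 FPKM after cocaine and 2.36 FPKM after saline, Ttr alone passed, at 10.8 FPKM after cocaine and 0.668 FPKM after saline in the authors' deposited table. Kl lay below 0, at 1.42 FPKM after cocaine and 1.46 FPKM after saline. Folr1 lay above 0, at 0.618 FPKM after cocaine and 0.234 FPKM after saline (p = 0.490 by the authors' deposited test). In RNA of whole tissue, a different number of cells of a type and a different amount of RNA per cell cannot be told apart, for higher or lower values.

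After repeated cocaine 1 member of the family was lower, the protocadherin Pcdh8, and none was higher by the authors' test. Pcdh8 stood at 6.65 FPKM in the cocaine group, against 7.85 FPKM in the saline group, a log2 fold change of -0.24 (0.848-fold). The other 49 tested members did not pass q < 0.05. Of the 50 tested members 46 had a log2 fold change within 0.2 of 0, beside 84.7% of all tested records. The highest members were Pcdh10, Pcdh1, Cdh13 and Cdh2 in both groups. The Pcdhb genes had low levels. Slightly higher values after cocaine were found in 16 of 21, beside 41.0% of all tested records, and none of the 21 passed.

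Of the 56 member records, 50 were marked as tested in the authors' deposited table, 5 as not tested and 1 as holding too little data. Among the tested members, 1 was called at the deposited q < 0.05, beside 184 of all 14959 tested records, which is 1.23% in either direction, 0.709% lower and 0.521% higher after cocaine. A count of 1 among 50 lies near that background. At an unadjusted p under 0.05 the table held 2 members, Pcdh8 and Pcdh20, beside 861 records or 5.76%. The median absolute log2 fold change was 0.0651 over the tested members and 0.0745 over all tested records.

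**Figure D1:**
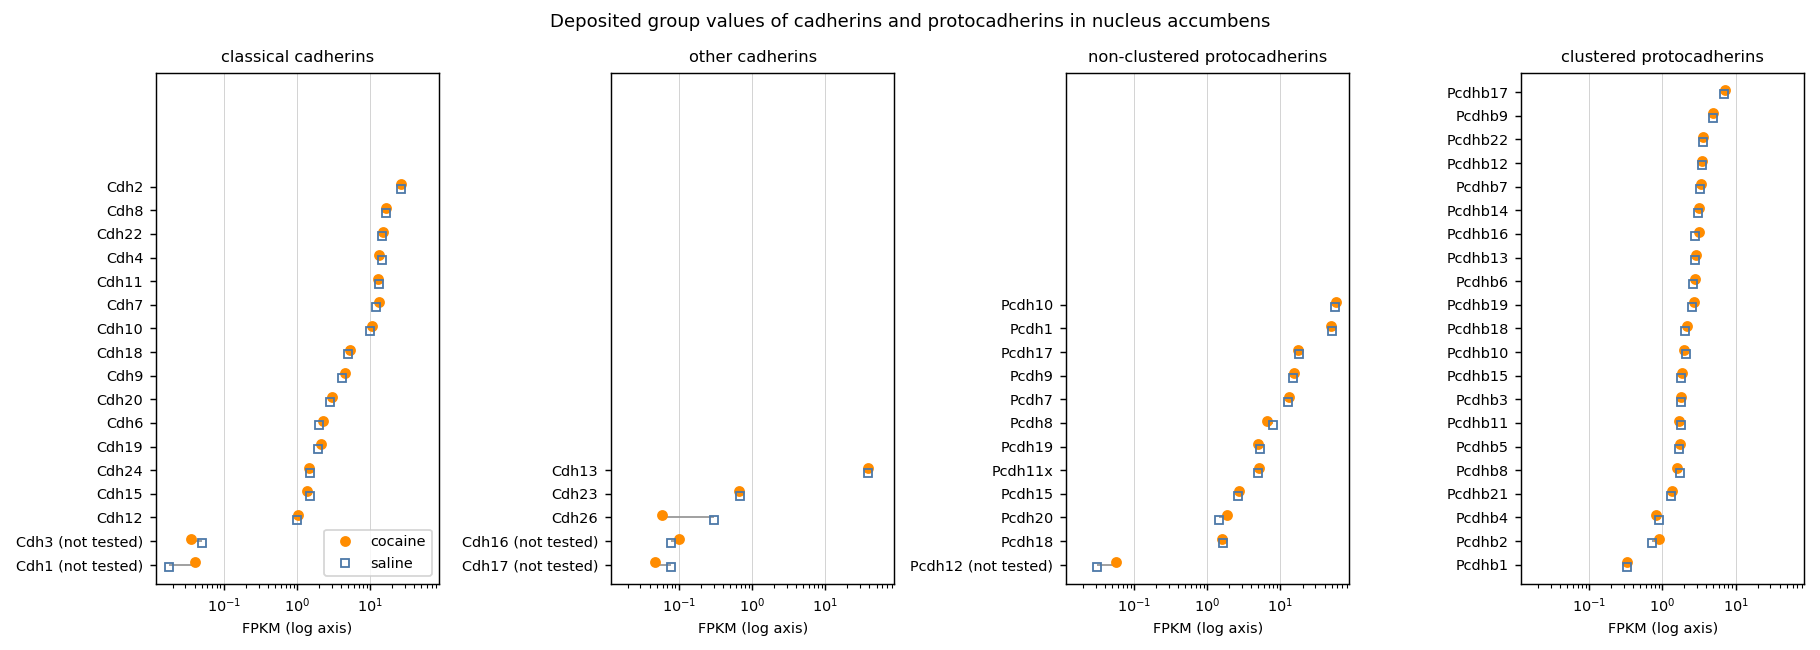
FPKM on a log axis for each member in the authors' deposited table, with the cocaine group value as a filled circle and the saline group value as an open square, in 4 classes ordered by mean level. The values of the 2 groups lie close together for nearly all members, from Pcdh10 at 58.1 FPKM after cocaine and 55.9 FPKM after saline down to the untested Cdh1 and Cdh3. A second Pcdh15 record listed at 0 is not drawn.

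Pcdh8 (ENSMUSG00000036422), known as arcadlin, is a delta-2 protocadherin whose mRNA is induced by neuronal activity, and work in rat hippocampal neurons describes it as drawing N-cadherin into the cell by way of the kinase Taok2. Its fall to 6.65 FPKM after cocaine, against 7.85 FPKM after saline, had a deposited p of 6.98e-05 and a q of 0.0104 by the authors' deposited table. The log2 fold change of -0.24 was -0.21 with a pseudocount of 1 FPKM and -0.20 after removal of the trend with GC content and transcript length described below. Cdh2, the gene of N-cadherin, stood at 26.3 FPKM after cocaine and 26.4 FPKM after saline (p = 0.952), and Taok2 at 40.3 FPKM after cocaine and 41.8 FPKM after saline (p = 0.664), in the authors' deposited table. Neither passed the test in either direction.

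Markers of some other cells also had lower values after cocaine, as Pcdh8 had. The 6 spiny neuron markers lay below 0 too, with a median of -0.03 beside -0.02 over all tested records. With the GC content and length trend removed, 4 of these 6 lay above 0. All 3 cortical excitatory neuron markers lay below 0, with a summed level of 50.1 FPKM after cocaine and 56.2 FPKM after saline, and Slc17a7 passed the threshold. Of 3 neuroblast markers, Sox11 and Cd24a passed with lower values after cocaine, and the 3 summed to 12.2 FPKM after cocaine and 15.1 FPKM after saline in the authors' deposited table. The third, Dcx, lay slightly above 0, at 4.60 FPKM after cocaine and 4.51 FPKM after saline. All 4 mural cell markers lay below 0, while 3 of 4 astrocyte markers and 2 of 3 microglia markers lay above 0, and none of these 11 passed q < 0.05 by the authors' deposited test. The astrocyte marker Slc1a2 was at 453 FPKM after cocaine and 377 FPKM after saline (p = 0.0345), and Aqp4 at 14.3 FPKM after cocaine and 12.5 FPKM after saline (p = 0.0451), in the authors' deposited table. Gfap, also of astrocytes, was at 10.8 FPKM after cocaine and 12.1 FPKM after saline (p = 0.0166) in the same deposited table of the authors. None of these markers was at 0, and their part in the Pcdh8 result was not tested.

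Pcdh20 (ENSMUSG00000050505), a protocadherin with fewer known partners, had the smallest p among members with a higher value after cocaine. It stood at 1.84 FPKM in the cocaine group and 1.45 FPKM in the saline group of the authors' deposited table, a log2 fold change of 0.34 with p = 0.00432 and q = 0.262, so it did not pass. The value was 0.21 with a pseudocount of 1 FPKM and 0.33 with the GC content and length trend removed. In the RefSeq annotation of GRCm38.p6, a later build than the NCBIM37 named in the submitters' processing notes, Pcdh8, Pcdh17, Pcdh20 and Pcdh9 follow each other in this order on chromosome 14, with 0 to 2 other protein-coding genes between neighbours. Across that stretch the deposited log2 fold changes were -0.24 for Pcdh8, -0.01 for Pcdh17, 0.34 for Pcdh20 and 0.04 for Pcdh9, with no common direction.

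The 250 bases before the annotated start are shown for Pcdh8, the called member, for Pcdh20, the member with the next smallest p, and for Pcdh10, the highest member. They come from RefSeq on GRCm38.p6 and are read on the strand of the gene, at chr14:79771313-79771562 on the minus strand for Pcdh8, chr14:88471397-88471646 on the minus strand for Pcdh20 and chr3:45378148-45378397 on the plus strand for Pcdh10. Capitals mark the searched motifs on either strand.
Pcdh8: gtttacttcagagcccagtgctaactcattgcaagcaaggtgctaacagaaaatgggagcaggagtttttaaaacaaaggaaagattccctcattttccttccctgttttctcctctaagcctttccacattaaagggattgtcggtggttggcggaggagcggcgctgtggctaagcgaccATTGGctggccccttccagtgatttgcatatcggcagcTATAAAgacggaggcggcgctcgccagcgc
Pcdh20: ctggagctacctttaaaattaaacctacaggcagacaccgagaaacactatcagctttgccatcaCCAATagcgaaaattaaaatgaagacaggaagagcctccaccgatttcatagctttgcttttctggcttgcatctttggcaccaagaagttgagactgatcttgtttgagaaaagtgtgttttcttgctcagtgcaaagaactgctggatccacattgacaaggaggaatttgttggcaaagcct
Pcdh10: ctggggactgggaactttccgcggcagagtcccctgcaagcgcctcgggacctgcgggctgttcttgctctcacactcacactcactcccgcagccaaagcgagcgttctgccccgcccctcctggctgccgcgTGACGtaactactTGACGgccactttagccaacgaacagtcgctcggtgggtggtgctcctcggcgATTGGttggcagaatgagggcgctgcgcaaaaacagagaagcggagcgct
The motifs were the cAMP response element TGACGTCA, its half-site TGACG (which the full element contains), the AP-1 site TGANTCA, the Egr site GCGTGGGCG, the TATA box TATAAA and the CCAAT box CCAAT. The Pcdh8 window held a TATA box that begins 30 bases before the start and a reversed CCAAT box that begins 68 bases before it. A TATA box was found in 12.4% of all 32851 promoter windows, and in 2 of the 25 windows of the 22 member genes with a promoter entry, those of Pcdh8 and Pcdh15. The Pcdh20 window held a CCAAT box, found in 33.9% of all windows and in 15 of the 25 member windows. The Pcdh10 window held 2 half-sites, which begin 116 and 103 bases before the start, and a reversed CCAAT box. The half-site occurred in 17.8% of all windows and in 4 of the 25. The full cAMP response element, the AP-1 site and the Egr site were in 0 of the 25 member windows, beside 1.55%, 6.75% and 0.54% of all windows.

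The other delta-2 protocadherins, which signal to the actin skeleton through the WAVE complex, did not pass. Pcdh10 stood at 58.1 FPKM after cocaine and 55.9 FPKM after saline (log2 fold change 0.05, p = 0.174) in the authors' deposited table, the highest level of the family and above that of 90.1% of tested records. Pcdh17 was at 17.6 FPKM after cocaine and 17.7 FPKM after saline in the authors' deposited table (p = 0.830). Pcdh19, a gene of epilepsy limited mostly to females in people, was at 4.93 FPKM after cocaine and 5.21 FPKM after saline in the authors' deposited table (-0.08, p = 0.520). Pcdh18 was at 1.58 FPKM after cocaine and 1.65 FPKM after saline in the authors' deposited table (p = 0.584). Of the 5 delta-2 genes 4 lay below 0, with Pcdh8 alone past the threshold and Pcdh10 alone above 0.

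The delta-1 protocadherins carry a tail motif that binds protein phosphatase 1. Pcdh1 stood at 48.6 FPKM after cocaine and 50.1 FPKM after saline in the authors' deposited table (-0.04, p = 0.156). Pcdh9 was at 15.1 FPKM after cocaine and 14.7 FPKM after saline in the authors' deposited table (p = 0.542), and Pcdh7 at 13.3 FPKM after cocaine and 12.7 FPKM after saline (p = 0.317). Pcdh11x, on the X chromosome, was at 5.04 FPKM after cocaine and 5.00 FPKM after saline in the authors' deposited table (p = 0.952). None passed, and 3 of the 4 lay above 0, between 0.01 and 0.07. Pcdh15, best known from the tip links of inner ear hair cells, had 1 tested record at 2.70 FPKM after cocaine and 2.65 FPKM after saline in the authors' deposited table (p = 0.898), and a second record of the same gene identifier listed at 0 in both groups. Over the 11 tested non-clustered protocadherins the median log2 fold change was 0.01, and it was -0.02 with the GC content and length trend removed.

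**Figure D2:**
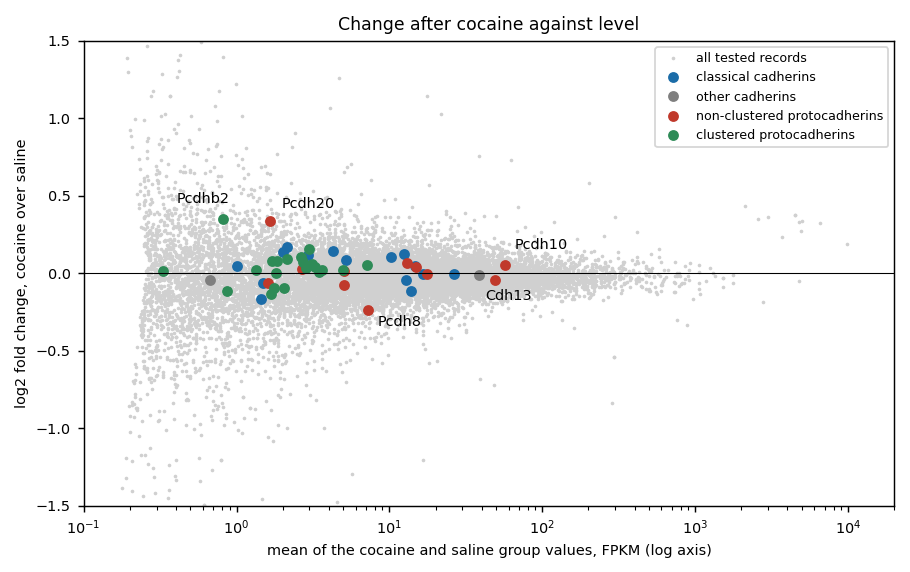
Log2 fold change, cocaine over saline, against the mean of the group values on a log axis, for all tested records (grey) and the tested members (coloured by class) in the authors' deposited table. Among the members drawn Pcdh8 is the lowest at -0.24, Pcdhb2 at 0.35 and Pcdh20 at 0.34 are the highest, and records with larger changes, Cdh26 among them, lie outside the drawn range.

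Classical cadherins, the kinds that bind catenins, held 17 records, of which 15 were tested and 0 passed in either direction. At an unadjusted p under 0.05 the authors' deposited table also held 0 of them. Over all tested records the shares were 1.23% at q < 0.05 and 5.76% at the unadjusted p. Cdh2, the neuronal cadherin of synapses and adherens junctions, was the highest, and Cdh4, also called R-cadherin, was at 13.2 FPKM after cocaine and 14.3 FPKM after saline (-0.11, p = 0.648 by the authors' deposited test). Cdh15, known from muscle and cerebellar granule cells, was at 1.36 FPKM after cocaine and 1.52 FPKM after saline in the authors' deposited table (-0.17, p = 0.266). These 3 are the tested type I cadherins, all below 0. Cdh1 and Cdh3, the epithelial and placental cadherins, were not tested, with group values of at most 0.0499 FPKM.

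The 12 type II cadherins, which mark subsets of neurons and regions, were all tested, and 9 of them had values above 0. Cdh8 was at 16.5 FPKM after cocaine and 16.6 FPKM after saline (p = 0.963), Cdh22 at 14.9 FPKM after cocaine and 14.4 FPKM after saline (p = 0.568) and Cdh11 at 12.6 FPKM after cocaine and 13.0 FPKM after saline (p = 0.361) in the authors' deposited table. Cdh7 was at 13.0 FPKM after cocaine and 12.0 FPKM after saline in the authors' deposited table (0.12, p = 0.334). The largest values of the class above 0 were those of Cdh6 (2.27 FPKM after cocaine, 2.02 FPKM after saline, 0.17, p = 0.223), Cdh9 (4.50 FPKM after cocaine, 4.08 FPKM after saline, 0.14, p = 0.130) and Cdh19 (2.12 FPKM after cocaine, 1.93 FPKM after saline, 0.14, p = 0.330) in the authors' deposited table. Cdh24, at 1.45 FPKM after cocaine and 1.51 FPKM after saline in the authors' deposited table, lay below 0. None of the 12 passed, so these signs describe the group values only.

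Several type II cadherins are neighbours in the genome. In the RefSeq annotation Cdh6, Cdh9, Cdh10 and Cdh12 are consecutive protein-coding genes, followed after 1 other gene by Cdh18. On another chromosome Cdh7 is next to Cdh19, and Cdh20 lies before Cdh7 with 21 other protein-coding genes between them. All 5 genes of the run from Cdh6 to Cdh18 had deposited log2 fold changes above 0, with Cdh10 at 0.10 (10.5 FPKM after cocaine, 9.80 FPKM after saline), Cdh18 at 0.08 (5.32 FPKM after cocaine, 5.02 FPKM after saline) and Cdh12 at 0.05 (1.03 FPKM after cocaine, 0.996 FPKM after saline) in the authors' deposited table. Cdh20, Cdh7 and Cdh19, the 3 genes of the other chromosome, also lay above 0, with Cdh20 at 0.12 (3.04 FPKM after cocaine, 2.80 FPKM after saline). The 4 tested members on the chromosome of Cdh8, namely Cdh8, Cdh11, Cdh13 and Cdh15, all lay below 0. Centring on the median of all tested records of at least 1 FPKM (-0.02) raises every value. It could therefore not turn a value above 0 below it. After removal of the GC content and length trend, the run of 5 and the group of Cdh20, Cdh7 and Cdh19 still lay above 0. The 5 genes from Cdh6 to Cdh18 had a median transcript GC content of 40.8%, against 49.9% over all tested records. The group of Cdh8 did not keep a common sign, since after centring Cdh8 (0.02) and Cdh13 (0.01) lay above 0, while after trend removal all 4 lay below it. These groups were formed after the values were seen, and no test was made of them.

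The remaining cadherins are atypical. Cdh13, also called T-cadherin, is held to the membrane by a lipid anchor and was the third highest member, at 38.2 FPKM after cocaine and 38.6 FPKM after saline in the authors' deposited table (p = 0.830). Cdh23, the partner of Pcdh15 in hair cell tip links, was at 0.657 FPKM after cocaine and 0.678 FPKM after saline in the authors' deposited table (p = 0.950). Cdh26 was at 0.0589 FPKM after cocaine and 0.305 FPKM after saline in the authors' deposited table, a log2 fold change of -2.37 between values near 0 that did not pass (p = 0.0905 by the authors' test). Cdh16, Cdh17 and the endothelial protocadherin Pcdh12 were not tested and had group values of at most 0.102 FPKM. The tested members below 1 FPKM in both groups were Cdh23, Cdh26, Pcdhb1, Pcdhb2 and Pcdhb4, and the other 45 reached 1 FPKM in at least 1 group.

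The clustered protocadherins were represented by 21 of the 22 Pcdhb genes that RefSeq annotates, each a gene with its own promoter in a tandem array on chromosome 18, and Pcdhb20 has no value here. All 21 were marked as tested and 0 passed in either direction. At an unadjusted p under 0.05 the authors' deposited table held 0 of them too. The shares over all tested records were 1.23% at q < 0.05 and 5.76% at the unadjusted p. Pcdhb17 was the highest, at 7.21 FPKM after cocaine and 6.95 FPKM after saline, followed by Pcdhb9 at 5.00 FPKM after cocaine and 4.93 FPKM after saline in the authors' deposited table. Pcdhb22, Pcdhb12, Pcdhb7, Pcdhb14, Pcdhb16 and Pcdhb13 came next, between 2.88 and 3.64 FPKM after cocaine and between 2.81 and 3.58 FPKM after saline. Pcdhb1 was the lowest, at 0.333 FPKM after cocaine and 0.330 FPKM after saline. Together the 21 records summed to 53.7 FPKM after cocaine and 52.3 FPKM after saline, less than Pcdh10 in the cocaine group (58.1 FPKM) and in the saline group (55.9 FPKM).

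Levels differed along the array. The first 5 genes, Pcdhb1 to Pcdhb5, had a median of 0.915 FPKM after cocaine and 0.899 FPKM after saline, and the highest of them was at 1.80 FPKM in both groups. The other 16 had a median of 2.83 FPKM after cocaine and 2.73 FPKM after saline in the authors' deposited table. The ranges overlapped, since the lowest of the 16 was at 1.35 FPKM after cocaine and 1.33 FPKM after saline. This cut was not planned, and no test was made of it. The order of levels was almost the same in the groups, with a Spearman's rho of 0.986 over the 21 genes, a description in which both values share the transcript model of each gene. With no value per library, neighbours in this order cannot be said to differ beyond a spread between replicates.

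Of the 21 Pcdhb log2 fold changes 16 lay above 0, beside 41.0% of all tested records, and the median was 0.04 beside -0.02. After removal of the GC content and length trend, 14 of the 18 genes of at least 1 FPKM lay above 0. Over all records with that trend removed it was 6297 of 12639, and the Pcdhb median was 0.05. After centring 17 of the 21 lay above 0, beside 7410 of all 14959 tested records. Centring raises every value, so only the trend removal could have changed the sign of the Pcdhb median, and the sign held. The 3 largest changes among Pcdhb genes of at least 1 FPKM were those of Pcdhb16 (3.13 FPKM after cocaine, 2.81 FPKM after saline, 0.15, p = 0.0784), Pcdhb8 (1.60 FPKM after cocaine, 1.76 FPKM after saline, -0.14, p = 0.422) and Pcdhb19 (2.75 FPKM after cocaine, 2.56 FPKM after saline, 0.10, p = 0.193) in the authors' deposited table. Pcdhb2, at 0.915 FPKM after cocaine and 0.717 FPKM after saline, had a log2 fold change of 0.35 with p = 0.120 by the authors' deposited test. All 10 measured genes from Pcdhb12 to the end of the array lay above 0, and 6 of the 11 before it did. That split was chosen after the values were seen. With the GC content and length trend removed, Pcdhb14 lay at -0.003, so the common sign of these 10 genes was not kept. The Pcdhb genes below 0 were Pcdhb3, Pcdhb4, Pcdhb8, Pcdhb10 and Pcdhb11.

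Pcdhb records are not fully separate, since the genes resemble each other. In the longest GENCODE transcript of each gene, between 0 and 12.0% of all 50-base words also occurred in a transcript of another gene, with a median of 3.71%. The share exceeded 10% in Pcdhb12, which shared most with Pcdhb11, and in Pcdhb21, which shared most with Pcdhb22. Pcdhb6 and Pcdhb8 shared most with each other, as did Pcdhb7 and Pcdhb9. How the authors divided such reads is not given in the sources used here, so the split of a level between such pairs is uncertain. Outside the cluster, Cdh11 shared 3.23% of its words, mostly with the predicted gene Gm3365, and no other member shared more than 0.28%.

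**Figure D3:**
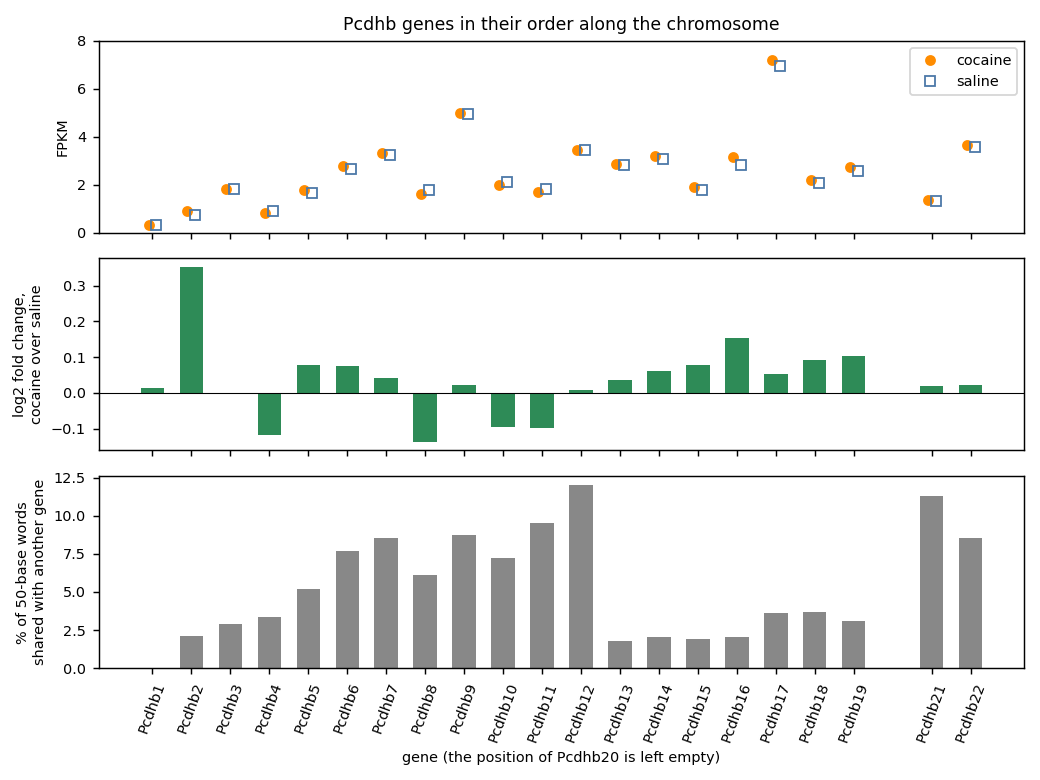
The Pcdhb genes in their RefSeq order, with the group values in FPKM (cocaine as filled circles, saline as open squares), the log2 fold change (cocaine over saline) and the percentage of 50-base words of the longest transcript found in another gene. Levels are lowest at Pcdhb1 and peak at Pcdhb17, and the log2 fold changes as deposited from Pcdhb12 on are all above 0 without passing the authors' test.

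The share of records that the authors' test called varied with the level. Most tested members, 27 of 50, had a mean of 1 to 5 FPKM, where 10 of 3503 tested records, or 0.285%, were called and the smallest absolute log2 fold change called was 0.23. Between 5 and 20 FPKM, the range of Pcdh8 and 13 other members, 36 of 5078 records or 0.709% were called, with a smallest called change of 0.09. From 20 FPKM up, where 4 members lay, 137 of 4290 records or 3.19% were called, with a smallest called change of 0.04. Members reached the smallest called change of their level in 1 case below 1 FPKM (Cdh26), in 1 case from 1 to 5 FPKM (Pcdh20), in 4 cases from 5 to 20 FPKM and in 2 cases from 20 FPKM up, and of these 8 only Pcdh8 was called.

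The change of the members was related to the base composition of their transcripts. Spearman's rho between the deposited log2 fold change and the GC content of the longest transcript was -0.51 over all 50 tested members and -0.65 over the 29 outside the cluster, and over 12639 tested records of at least 1 FPKM it was -0.30. These genes share the same libraries and the same pair of group values, so the coefficients are descriptions. Pcdh8 had a GC content of 59.3% and Pcdh20 one of 42.0%. Cdh15, at 59.9%, lay below 0, and Cdh10, at 33.8%, above 0, while Cdh22 at 62.7% lay above 0. Pcdhb11, at 43.8%, and Cdh11, at 44.9%, lay below 0. With length the coefficients were 0.04 over the 50 members, -0.02 over the 29 and 0.18 over the 12639 records. For the classical cadherins the deposited median log2 fold change was 0.0488, on a scale where all tested records of at least 1 FPKM had a median of -0.02. Centring these records on 0 gave the class a median of 0.0697. Removing the trend with GC content and length, which also sets their median to 0, gave 0.0685. On that like baseline the trend removal left the class median nearly unchanged.

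**Figure D4:**
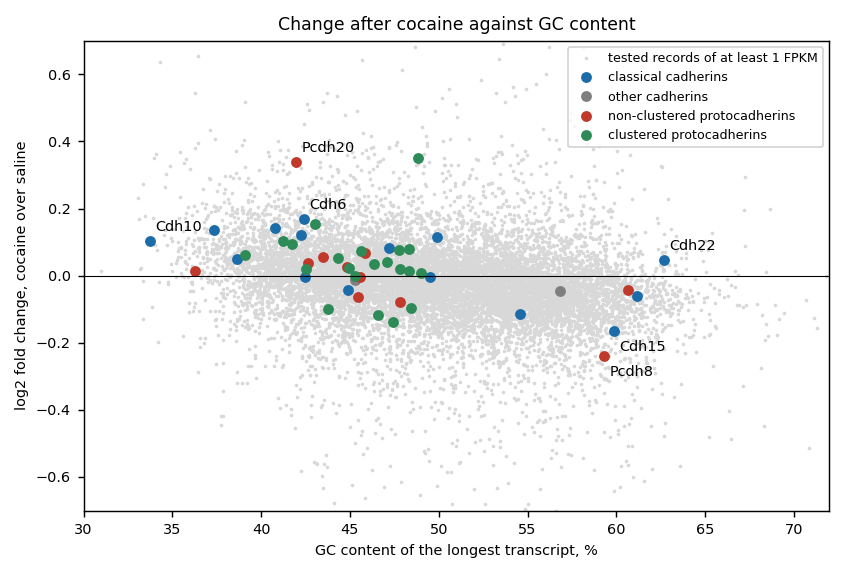
Log2 fold change (cocaine over saline, authors' deposited table) against the GC content of the longest GENCODE transcript, for tested records of at least 1 FPKM (grey) and tested members (coloured by class). GC-poor members such as Cdh10 and Cdh6 lie above 0 and GC-rich ones such as Pcdh8 and Cdh15 below it. Exceptions include Cdh22, GC-rich and above 0, and Pcdhb11 and Cdh11, GC-poor and below 0.

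No catenin or other gene of the adherens junction list passed. Of 24 catenins and adherens junction genes, the transmembrane nectins among them, 21 were tested, with a median log2 fold change of -0.02. By the authors' deposited test 0 were higher and 0 lower at q < 0.05, beside 1.23% of all tested records. At an unadjusted p under 0.05 there were also 0, beside 5.76%. Ctnnb1, the gene of beta-catenin, stood at 253 FPKM after cocaine and 260 FPKM after saline (p = 0.443), and Pkp4, a p120-catenin relative, at 99.8 FPKM after cocaine and 95.0 FPKM after saline (p = 0.417), in the authors' deposited table. These 2 were the highest of the list, whose tested genes had a median of 11.4 FPKM after cocaine and 11.0 FPKM after saline and went down to Ctnna3, an alpha-catenin, at 1.24 FPKM after cocaine and 0.978 FPKM after saline.

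Other members of the cadherin superfamily gave 0 calls among 17 tested genes, with 14 values below 0 and a median of -0.06, beside 59.0% below 0 and a median of -0.02 over all tested records. At an unadjusted p under 0.05 there were 3 of 17, all lower, beside 5.76% of all tested records in either direction and 3.74% lower. Dchs1, a giant cadherin that pairs with Fat4 in planar polarity, was at 3.42 FPKM after cocaine and 4.15 FPKM after saline (-0.28, p = 0.00287, q = 0.189) in the authors' deposited table. Cdh5, the endothelial cadherin, was at 1.12 FPKM after cocaine and 1.45 FPKM after saline (p = 0.0111, q = 0.498 by the authors' deposited test), with all 5 endothelial markers, itself included, below 0. Clstn1, a calsyntenin of synapses and axonal transport, was at 236 FPKM after cocaine and 244 FPKM after saline (p = 0.0190, q = 0.700), and Clstn3 at 136 FPKM after cocaine and 137 FPKM after saline (p = 0.940), in the authors' deposited table.

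Among 16 tested genes of protocadherin effectors, which include the WAVE complex and focal adhesion kinases, 1 was lower and 0 were higher at q < 0.05, beside 1.23% of all tested records in either direction and 0.709% lower, with a median of -0.02. The lower one was Marcks, an actin-binding substrate of protein kinase C, at 54.5 FPKM after cocaine and 58.3 FPKM after saline (-0.10, q = 0.00324) in the authors' deposited table. Cyfip2, a WAVE complex subunit, was at 143 FPKM after cocaine and 137 FPKM after saline (p = 0.00865, q = 0.419), and Nlgn1, a neuroligin, at 16.2 FPKM after cocaine and 14.1 FPKM after saline (p = 0.00923, q = 0.440) in the authors' deposited table, neither past the threshold. Nckap1, another WAVE subunit, was at 161 FPKM after cocaine and 156 FPKM after saline (p = 0.330), while Ptk2b, at 191 FPKM after cocaine and 196 FPKM after saline, was marked as failed in the authors' deposited table.

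Regulators of the protocadherin cluster gave 0 calls among 13 tested genes, beside 1.23% of all tested records, and a median of 0.01. At an unadjusted p under 0.05 by the authors' deposited test there were also 0, beside 5.76%. Ctcf, the insulator protein that links cluster promoters to their enhancers, was at 30.8 FPKM after cocaine and 30.9 FPKM after saline (p = 0.956), and the cohesin release factor Wapal at 43.2 FPKM after cocaine and 42.5 FPKM after saline (p = 0.848), in the authors' deposited table. Proteases that cut cadherins and their inhibitors gave 0 calls among 13 tested genes, 0 also at an unadjusted p under 0.05, and a median of -0.04. Adam10, which sheds the outer part of N-cadherin and several protocadherins, was at 14.9 FPKM in both groups of the authors' deposited table (p = 0.987). The highest 2 tested genes of that list were Adam15, at 37.6 FPKM after cocaine and 43.1 FPKM after saline (p = 0.0665), and the gamma-secretase subunit Psenen, at 26.6 FPKM after cocaine and 27.4 FPKM after saline (p = 0.656) in the authors' deposited table.

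**Figure D5:**
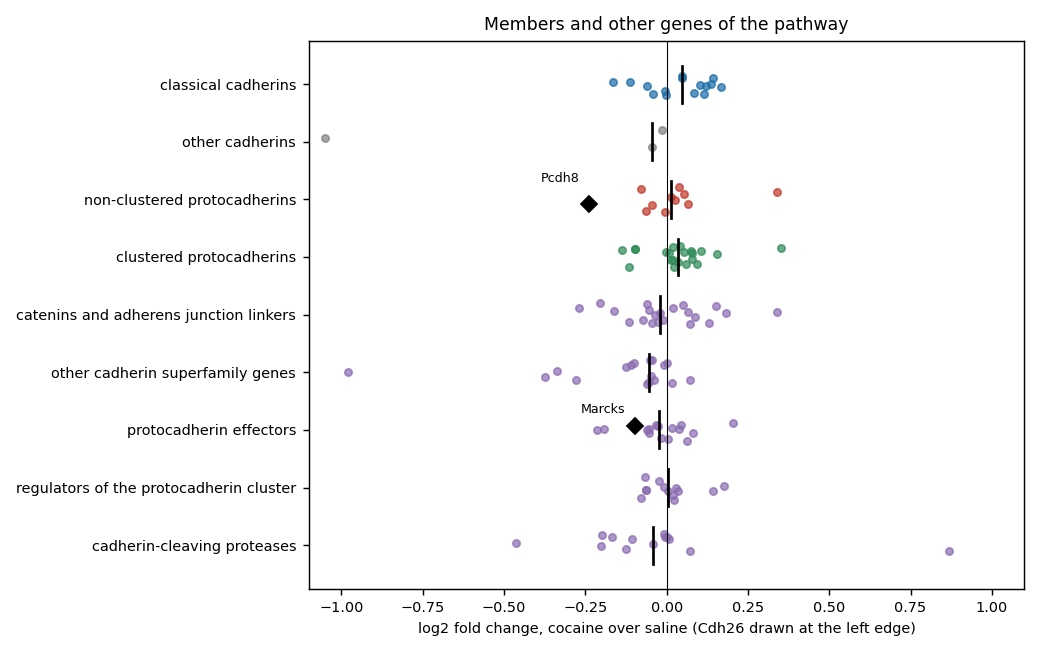
Log2 fold change (cocaine over saline, authors' deposited table) of each tested member and of the tested genes of 5 other lists, 1 point per gene, with vertical bars at the medians and black diamonds at deposited q < 0.05. Pcdh8 and Marcks are the marked genes, and the medians lie between -0.06 and 0.05.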

How the data were processed

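RNA-seq of nucleus accumbens was deposited as a single gene table, analysed here as the authors made it. Reads were aligned or assembled with TopHat2 2.0.6 and Cufflinks 2.0.2, per the submitters' processing notes, on build NCBIM37. The annotation, read length and strandedness are not stated there. The table has the layout of a Cuffdiff gene table, so its group values were taken as FPKM made by the authors, although the file does not write the unit. The log2 fold change (cocaine over saline), p-value and q-value were deposited by the authors and copied, and log2 values recomputed from the FPKM lay within 1.28e-05 of them. A record was called at the deposited q < 0.05 among those marked as tested (status OK). No test per library was possible, and no depth, interval or floor could be given.

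The members and lists were chosen with earlier results of these data known, and lists use 1 record per symbol. Named members are those with p under 0.05, the 8 highest of each class and the 3 largest changes of each class at 1 FPKM or more; the remaining members are mentioned so that all are accounted for. GC content and length are those of each gene's longest transcript in GENCODE mouse release 21 (GRCm38), found for 14499 of 14959 tested records and all 50 tested members. To remove their trend, the median fold change was subtracted within each cell of 10 GC by 10 length bins over records of at least 1 FPKM, after the step was tested on simulated data. Shared sequence was counted as 50-base words in the forward direction. Other alternatives were q < 0.10, re-adjustment over records of at least 1 FPKM, minimums of 1 and 5 FPKM, pseudocounts of 0.1 and 1 and centring. Python 3.11.15 with pandas 2.3.3 and numpy 2.4.6 was used.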

Additional observations from a re-analysis of the deposited data

How the results depend on the processing

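The count of called members was 1 (Pcdh8) at the deposited q < 0.05, at q < 0.10, after Benjamini-Hochberg adjustment over tested records of at least 1 FPKM and with 1 record per symbol. At an unadjusted p under 0.05 it was 2, beside 861 of all tested records in place of 184. Under the expression minimums, pseudocounts, centring and trend removal the class medians of the log2 fold change ranged from 0.02 to 0.07 for classical cadherins, from -0.05 to -0.01 for other cadherins, from -0.02 to 0.03 for non-clustered protocadherins and from 0.03 to 0.06 for clustered protocadherins. The other cadherins had only 3 tested genes, and under the expression minimums and trend removal their value was that of Cdh13 alone. Pcdh8 and Pcdh20 kept their sign after trend removal, at -0.20 and 0.33. A pseudocount cannot reverse a sign, and centring subtracts -0.02 from every value, too little to reverse either. These settings were therefore no check of the sign. Leaving out a replicate was not run because the table holds no value per library. No paired analysis was possible because the table gives 1 value per group. Pcdhb genes mostly lay below 5 FPKM, where the authors' test called few records.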
